A study of Homo sapiens with 8 samples.

Results

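The 40 genes described here are androgen response genes outside the kallikrein family, and the question was where the transcription factor GATA2 sat on chromatin near them with and without JQ1. A peak was assigned to a gene when its summit lay within 50 kb of the gene's span in the RefSeq annotation of GRCh38.p14, and all 40 genes of the list were found among the 20037 protein-coding genes on chromosomes 1 to 22, X and Y. Near these 40 genes lay 468 of the 71653 peak rows in the 4 lists, and they merged into 224 of 36122 regions. The cells were VCaP, an established line of human castrate-resistant prostate cancer. All groups spent 72 h without steroids, and 1 µM JQ1, a blocker of the bromodomains of BET proteins, was present for 24 h before harvest in the JQ1 group. The control group is titled as non-treated, while its growth protocol names DMSO as vehicle, and it is called untreated here. Each group had 2 GATA2 precipitates, each with a peak list of its own, and the 4 input samples had no list used here. Nothing in the labels says that the replicates were separate cultures, so the spread between them may be technical.

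The androgen receptor is a nuclear receptor that moves to the nucleus after binding testosterone or dihydrotestosterone and raises genes of secretion, lipid metabolism and growth in prostate cells, mostly from distal enhancers. GATA2 is a zinc finger factor that binds short GATA motifs and acts in prostate cells as a pioneer that helps open androgen receptor enhancers. BET proteins bind acetylated histones and link enhancers to transcription, and VCaP carries an amplified androgen receptor gene and the TMPRSS2-ERG fusion. The peak lists hold no expression values, so neither the response of the 40 genes to androgen nor the identity of the line was measured here.

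The lists differed far more by replicate number than by treatment. Untreated replicate 1 held 6902 rows and JQ1 replicate 1 held 4974, against 27373 in untreated replicate 2 and 32404 in JQ1 replicate 2. Every list reached down to a q-value just under 0.05, with a lowest −log10 q between 1.31 and 1.33. Over all protein-coding genes, the log2 ratio of the number with a peak, JQ1 over untreated, was -0.20 (geometric means of 2 lists each), with p = 1 in a two-sided exact permutation test whose smallest possible p is 0.333. Read depth was not analysed here, and its part in a peak's absence from a replicate 1 list was not tested.

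GATA2 peaks lay near most of the androgen response genes, and more often than near protein-coding genes in general. In untreated replicate 1, 27 of the 40 genes had a peak, against 25.7% of all protein-coding genes. The longer list of untreated replicate 2 had a peak near 37 of the 40, against 54.6% of all genes. With JQ1, 22 of the 40 had a peak in replicate 1, against 18.2% of all genes, and 37 in replicate 2, against 58.2%. The share of the 40 genes was thus above that of all genes in each of the 4 lists, and the ratio of the shares was larger in the shorter lists. A peak in at least 1 list was found for 38 of the 40 genes, against 62.6% of all genes. The other 2 were GNMT, an enzyme that methylates glycine, and AZGP1, the secreted zinc-alpha-2-glycoprotein, and neither had a peak in any list.

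Presence in several lists was scored per region, a region being a set of peak intervals that overlap by at least 1 bp. A region found in both lists of a group is called recurrent. An untreated recurrent region lay near 25 of the 40 genes, against 24.3% of all genes, and a JQ1 recurrent region near 22, against 17.8%. A region present in all 4 lists lay near 18 of the 40 (45.0%), against 13.6% of all genes. Counting peaks at any position, 20 of the 40 genes had a peak in every list, against 14.9% of all genes. Beyond the 18, these were ACSL3 and SGK1, whose replicate 1 peaks lay at different regions. When each list was reduced to its 4974 strongest rows, the untreated recurrent count fell to 15 genes, against 13.5% of all genes. The JQ1 recurrent count was 17 under that setting, against 12.3%, so the order of the treatments turned round. The count with a region in all 4 lists fell to 10, against 9.16%. With rows of −log10 q of 5 or more alone, 10 of the 40 had a region in all 4 lists, against 11.2% of all genes. Narrower windows lowered that count to 11 genes at 10 kb, against 7.65%, and to 10 inside the span, against 6.09%.

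**Figure D1:**
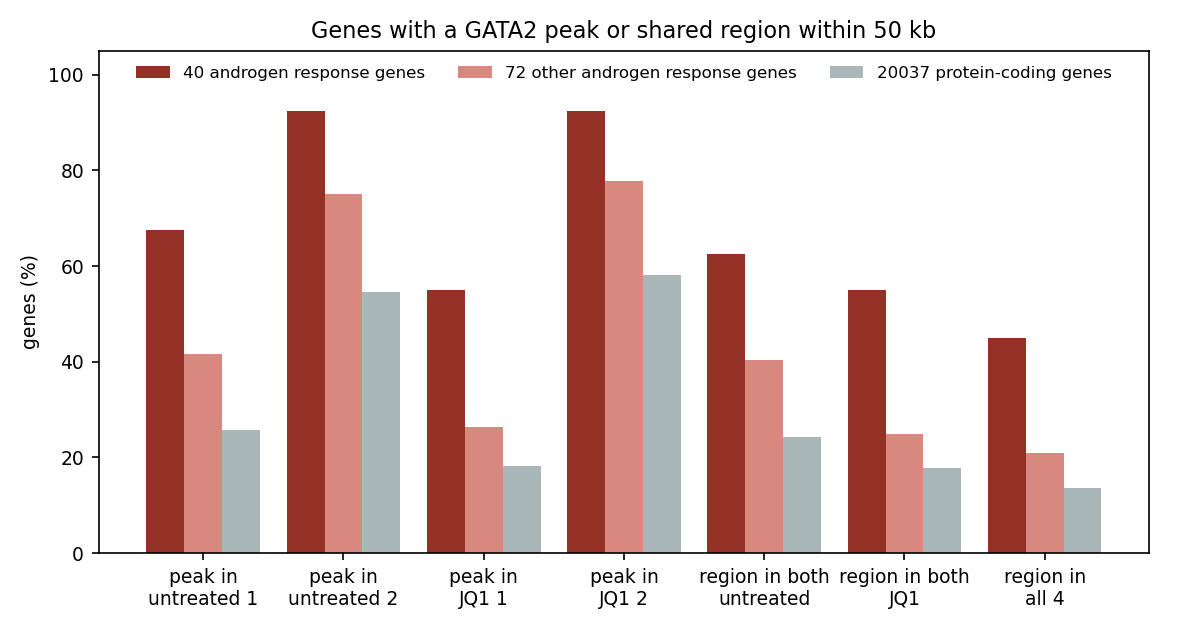
Share of genes (percent, vertical axis) with a GATA2 peak within 50 kb in each list, or with a region shared by lists, for the 40 androgen response genes, 72 other androgen response genes and all 20037 protein-coding genes. The bar of the 40 genes is the tallest in every set, for example 45.0% against 20.8% and 13.6% for a region in all 4 lists.

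The 40 genes are long, and a longer gene offers more bases for a peak. Their median span was 79.2 kb, against 24.1 kb for all protein-coding genes. Among spans above 100 kb, 11 of 16 (68.8%) had a region in all 4 lists, against 31.4% of all genes of that length. Among spans of 25 to 100 kb, 6 of 18 (33.3%) did, against 13.4%. Below 25 kb, 1 of 6 did, which was C1orf116, against 7.85% of all genes. The share of the 40 was above that of all genes in each length class, although the shortest class rests on a single gene. Per 100 kb of window, the 40 genes carried 0.512 rows in untreated replicate 1, 1.95 in untreated replicate 2, 0.412 in JQ1 replicate 1 and 2.45 in JQ1 replicate 2. Over all genes the same densities were 0.239, 0.864, 0.161 and 1.04 rows.

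**Figure D2:**
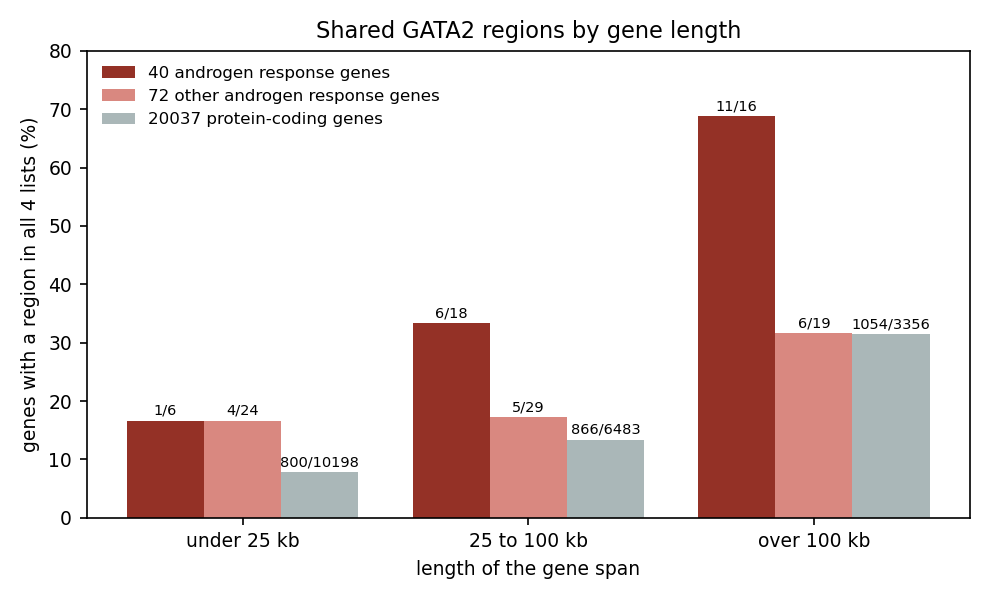
Share of genes (percent, vertical axis) with a GATA2 region in all 4 lists by length of the gene span, with the counts above the bars. The share rises with length in the 40 androgen response genes and in all protein-coding genes, and the 40 genes stand highest in both classes above 25 kb.

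The peaks near the 40 genes were more numerous per length, and their median strength lay on either side of that of their list. The authors' −log10 q, a measure of peak strength that also grows with the depth of a library, had a median of 9.55 near the 40 genes and 9.55 in the whole list in untreated replicate 1. The 2 medians were 15.5 and 13.3 in untreated replicate 2, 6.98 and 8.20 in JQ1 replicate 1, and 11.96 and 12.07 in JQ1 replicate 2. The strongest 10% of a list held 3 of 46 rows near the 40 genes in untreated replicate 1, 15 of 172 in untreated replicate 2, 0 of 35 in JQ1 replicate 1 and 22 of 215 in JQ1 replicate 2. The share was below 10% in the first 3 of these lists and 10.2% in JQ1 replicate 2.

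Few regions near the 40 genes were found in both lists of 1 treatment and in neither list of the other. Most regions came from the replicate 2 lists, where 93 of the 224 regions (41.5%) were found in both and in neither replicate 1 list, against 38.0% of all regions. Another 77 (34.4%) were found in 1 list only, against 39.98% of all regions, and these were 56 of JQ1 replicate 2, 20 of untreated replicate 2 and 1 of untreated replicate 1. All 4 lists shared 21 regions (9.38%), against 8.96% of all regions. Another 18 were missing from JQ1 replicate 1 alone (8.036% against 8.001%), and 13 were missing from untreated replicate 1 alone (5.80% against 3.68%). A region in both untreated lists and neither JQ1 list lay near 1 of the 40 genes, ZBTB10, against 1.24% of all genes. The opposite pattern was found near 0 of the 40, against 0.719% of all genes. With lists of equal length, the first pattern was found near 3 genes (PTGER4, ZBTB16 and TPD52), against 1.797% of all genes, and the opposite near 5 (ACSL3, PLPP1, SGK1, BMPR1B and IQGAP2), against 1.592%.

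The number of genes with a peak did not separate the treatments. A peak lay near 32.0 ± 7.07 of the 40 genes in the untreated lists and near 29.5 ± 10.6 in the JQ1 lists (mean ± SD, n = 2 each). Within replicate 1 the count was 27 untreated and 22 with JQ1, and within replicate 2 it was 37 in both. Peak rows near the 40 genes went from 46 to 35 in replicate 1 and from 172 to 215 in replicate 2, so the replicates moved in opposite directions. The mean difference of -2.5 genes became 2.5 without untreated replicate 2, 5 without JQ1 replicate 1 and 1 with lists of equal length. Fewer rows in both JQ1 lists than in either untreated list were counted for 1 of the 40 genes, again ZBTB10, against 0.429% of all genes, and more rows for 0, against 0.125%. With lists of equal length, 8 genes had row numbers that did not overlap between the treatments, with 3 lower (PTGER4, TRPM8 and TPD52) and 5 higher with JQ1 (ZBTB16, PLPP1, INPP4B, BMPR1B and IQGAP2), against 1.497% and 1.357% of all genes. ZBTB10 was not among those 8.

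**Figure D3:**
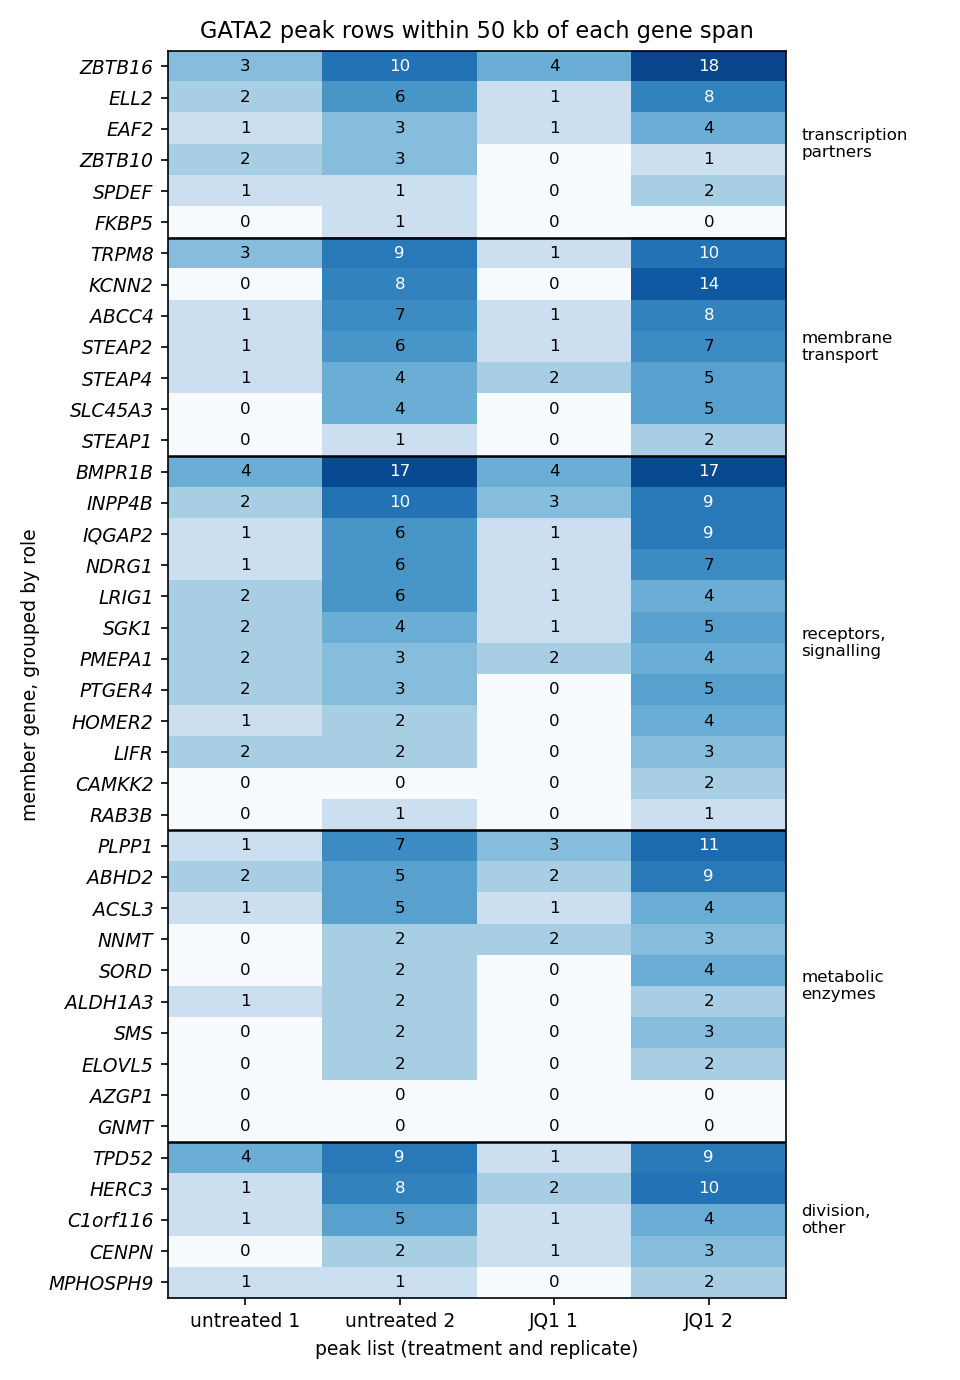
Number of GATA2 peak rows within 50 kb of each of the 40 genes (rows, grouped by role) in each of the 4 lists (columns), with darker cells for more rows. The replicate 2 columns are darker than the replicate 1 columns in both treatments, and the rows of GNMT and AZGP1 are at 0 throughout.

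Genes with an untreated recurrent region mostly had peaks with JQ1 as well. Of the 25, 20 also had a JQ1 recurrent region, against 2920 of the 4869 protein-coding genes with an untreated recurrent region. All 25 had a peak in JQ1 replicate 2, against 98.8% of those genes, so this count was near the background. In JQ1 replicate 1, 20 of the 25 had a peak, against 60.5%. For ACSL3 and SGK1, the JQ1 recurrent region was not the untreated recurrent one. Counted per region, 21 of the 40 untreated recurrent regions near these genes were in all 4 lists, against 3236 of 6365 among all regions. The 40 genes also had more rows per gene, with a median of 10.5 over the 4 lists against 2 for all genes. The part of row number in the gene counts was not tested. The 5 genes without a JQ1 recurrent region were ZBTB10, PTGER4, HOMER2, LIFR and ALDH1A3. A JQ1 recurrent region with no untreated one was found near CENPN and NNMT.

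Among 6 transcription factors and hormone receptor partners, all had a peak in some list and 3 had a region in all 4 lists. Over all genes these shares were 62.6% and 13.6%. ZBTB16, or PLZF, a zinc finger repressor, carried 10 and 18 rows in the replicate 2 lists and 3 and 4 in the replicate 1 lists, untreated first. Its best shared region, best meaning the lowest mean rank of q within the lists, lay inside the gene at chr11:114179184-114179674, with −log10 q of 23.7 and 78.5 untreated and 9.95 and 111 with JQ1. The fold enrichment there was 8.61 and 14.4 untreated and 6.01 and 30.98 with JQ1. Both values were lower with JQ1 in replicate 1 and higher in replicate 2. Another region of ZBTB16 in all 4 lists, at chr11:114077796-114078633, read 9.76 and 39.2 untreated and 13.9 and 124 with JQ1, and so was higher with JQ1 in both replicates. ELL2, a transcription elongation factor, had its best region 27.9 kb outside its span at chr5:95989397-95989985, nearer to CAST, with −log10 q of 4.30 and 76.1 untreated and 6.98 and 59.4 with JQ1 and fold enrichment of 3.58 and 17.6 untreated and 5.40 and 11.5 with JQ1. EAF2, a partner of the ELL factors, had its region 35.1 kb upstream at chr3:121799925-121800243, where IQCB1 is the nearest gene. There the −log10 q was 6.17 and 53.2 untreated and 11.98 and 39.6 with JQ1 and the fold enrichment 5.20 and 20.9 untreated and 7.60 and 14.2 with JQ1. At both ELL2 and EAF2 the q-value was stronger with JQ1 in replicate 1 and weaker in replicate 2.

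The other transcription genes had fewer shared peaks. ZBTB10, a zinc finger factor on chromosome 8, had 2 untreated recurrent regions. The stronger, at chr8:80549682-80550084, read 10.4 and 69.6 untreated and 47.0 in JQ1 replicate 2, with no peak in JQ1 replicate 1. The region missing from both JQ1 lists, at chr8:80552427-80552623, was weak, with −log10 q of 4.64 and 3.85, and no region near ZBTB10 met the separated pattern when rows below a −log10 q of 5 were dropped. SPDEF, an epithelial ETS factor, had a peak in every list but JQ1 replicate 1, but no region in both untreated lists. Its 3 regions lay 39.5 to 46.8 kb upstream, with ILRUN as the nearest gene. FKBP5, a co-chaperone of steroid receptors and a widely used androgen target, had 1 peak, 25.8 kb downstream, in untreated replicate 2 alone with −log10 q of 6.37.

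Of 7 membrane transporters, channels and metalloreductases, all had a peak and 4 had a region in all 4 lists. The shares of all genes were 62.6% and 13.6%. STEAP2, a metalloreductase that handles iron and copper, held the highest ranked shared region of the 40 genes, inside the gene at chr7:90227369-90227673. Its −log10 q was 53.8 and 142 untreated and 21.1 and 138 with JQ1, and its fold enrichment was 15.6 and 34.5 untreated and 9.07 and 27.1 with JQ1. Both measures were lower with JQ1 in both replicates, by a small margin in replicate 2 for −log10 q. STEAP1, its neighbour on chromosome 7, shared 2 regions with STEAP2 and had peaks in the replicate 2 lists alone, the best with −log10 q of 36.0 in each. STEAP4, a metalloreductase of the same family, had its shared region 43.7 kb downstream of the gene at chr7:88226984-88227348. The −log10 q there was 8.97 and 57.4 untreated and 3.19 and 24.8 with JQ1 and the fold enrichment 4.96 and 21.8 untreated and 4.05 and 10.5 with JQ1, lower with JQ1 in both replicates.

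The STEAP4 region is the shared region for which promoter sequence was at hand, because it overlaps the window before the start of SRI, which encodes the calcium-binding protein sorcin. The stretch is shown because it lies under the peaks of all 4 lists, on the minus strand at chr7:88227075-88227226 (RefSeq, GRCh38.p14), 99 to 250 bases before the SRI start. Capitals mark a GATA motif, spelled GATA with A or T before it and A or G after it and searched on both strands.
STEAP4 region before SRI: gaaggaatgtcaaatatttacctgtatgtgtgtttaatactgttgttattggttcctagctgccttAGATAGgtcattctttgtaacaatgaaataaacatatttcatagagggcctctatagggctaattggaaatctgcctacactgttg
The 1 motif in these 152 bases lay 12 bp from the summit of untreated replicate 1, 40 bp from that of untreated replicate 2, and 67 and 30 bp from the JQ1 summits. Of all promoter windows cut to the same place and length, 15.8% held the motif, and a match is a description, not a shown binding site.

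TRPM8, a cold-sensing calcium channel of prostate epithelium, had its best shared region 30.8 kb upstream at chr2:233886458-233886950, nearest to MSL3B. Its −log10 q was 13.7 and 63.04 untreated and 7.72 and 77.5 with JQ1 and its fold enrichment 8.74 and 21.2 untreated and 5.25 and 20.7 with JQ1. ABCC4, an efflux pump for cyclic nucleotides and prostaglandins, had its region inside the gene at chr13:95045477-95045961, with −log10 q of 10.3 and 60.6 untreated and 3.86 and 51.8 with JQ1 and fold enrichment of 7.45 and 19.6 untreated and 4.62 and 19.2 with JQ1. At TRPM8 the −log10 q was lower with JQ1 in replicate 1 and higher in replicate 2, while at ABCC4 it was lower in both. KCNN2, a calcium-activated potassium channel, had 14 regions, none of them in a replicate 1 list, and its best read 35.84 untreated and 48.95 with JQ1 in replicate 2. SLC45A3, the prostate marker prostein, had peaks in both replicate 2 lists only. KCNN2, SLC45A3 and STEAP1 were among 7 of the 40 genes with peaks in both replicate 2 lists only, with SORD, RAB3B, ELOVL5 and SMS, against 22.6% of all genes.

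Receptors and signalling genes were the largest role group, and 10 of the 12 had an untreated recurrent region, against 24.3% of all genes. A region in all 4 lists lay near 6 of them, against 13.6%. PMEPA1, a membrane protein that dampens TGF-beta and androgen receptor signalling, had its region 46.5 kb upstream at chr20:57757392-57758165. The −log10 q there was 26.8 and 111 untreated and 16.4 and 129 with JQ1 and the fold enrichment 9.23 and 19.9 untreated and 7.54 and 29.7 with JQ1. It was the strongest shared region of the 40 genes that lay outside a gene span by mean rank. BMPR1B, a type I receptor for bone morphogenetic proteins, carried 17 rows in each replicate 2 list and 4 in each replicate 1 list. Its best region, inside the gene at chr4:95025693-95026093, read 15.9 and 166 untreated and 21.6 and 107 with JQ1 in −log10 q and 9.17 and 48.2 untreated and 11.5 and 25.98 with JQ1 in fold enrichment. Here JQ1 stood higher in replicate 1 and lower in replicate 2. INPP4B, a phosphatase of PI3K lipids, had its region inside the gene at chr4:142459118-142459676, with −log10 q of 10.3 and 46.6 untreated and 11.2 and 40.01 with JQ1 and fold enrichment of 7.45 and 16.3 untreated and 8.46 and 13.7 with JQ1.

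The other 3 of the 6 had weaker shared regions in the replicate 1 lists. LRIG1, a membrane protein that limits growth factor receptors, had its region inside the gene at chr3:66416543-66416841, with −log10 q of 9.49 and 59.8 untreated and 2.50 and 71.8 with JQ1 and fold enrichment of 5.85 and 12.01 untreated and 3.12 and 19.6 with JQ1. NDRG1, a stress and differentiation gene on chromosome 8, had its region at chr8:133260597-133261159, with −log10 q of 6.17 and 32.6 untreated and 4.25 and 26.7 with JQ1 and fold enrichment of 4.05 and 7.85 untreated and 3.96 and 8.36 with JQ1. IQGAP2, a scaffold of the actin cytoskeleton, had its region 11.8 kb downstream at chr5:76719737-76720196, nearest to the thrombin receptor gene F2R. Its −log10 q of 3.61 and 20.9 untreated and 8.66 and 61.2 with JQ1 was higher with JQ1 in both replicates, as was its fold enrichment of 4.88 and 10.2 untreated and 5.94 and 20.7 with JQ1. IQGAP2 was the only one of the 18 best regions for which −log10 q was higher with JQ1 in both replicates.

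Receptors of prostaglandin and cytokine signals were among the genes with no peak in JQ1 replicate 1. PTGER4, the prostaglandin E2 receptor EP4, had a region at chr5:40685217-40685510 with −log10 q of 23.08 and 40.03 untreated and 21.4 in JQ1 replicate 2. LIFR, the receptor for leukaemia inhibitory factor, had a region that read 10.8 and 36.4 untreated and 30.4 in JQ1 replicate 2. HOMER2, a scaffold of calcium signalling, had a region at chr15:82890958-82891259 that read 10.3 and 23.6 untreated and 23.4 in JQ1 replicate 2. A peak in every list but JQ1 replicate 1 was found for 7 of the 40 genes, namely these 3, ZBTB10, MPHOSPH9, SPDEF and ALDH1A3, against 9.86% of all genes. A peak in every list but untreated replicate 1 was found for CENPN and NNMT alone, against 3.12% of all genes. In SGK1, a kinase activated by PI3K, the stronger region was missing from JQ1 replicate 1 and read 19.0 and 89.8 untreated and 96.1 in JQ1 replicate 2. CAMKK2, a kinase upstream of AMPK, had 2 peaks, both in JQ1 replicate 2 alone, with −log10 q of 6.01 and 7.92. RAB3B, a GTPase of vesicle release, had 1 row in each replicate 2 list.

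The metabolic group was 10 genes, mostly enzymes, with the secreted glycoprotein AZGP1 counted among them. Of the 10, 8 had a peak in some list and 2 had a region in all 4 lists, against 62.6% and 13.6% of all genes. ABHD2, a lipid hydrolase, had its region inside the gene at chr15:89129736-89130140, with −log10 q of 29.7 and 154 untreated and 14.04 and 172 with JQ1. The fold enrichment was 7.52 and 28.1 untreated and 5.28 and 34.7 with JQ1. This was the strongest peak near the 40 genes in JQ1 replicate 2, while in JQ1 replicate 1 it was weaker than in untreated replicate 1. PLPP1, a lipid phosphate phosphatase, had its region 38.9 kb outside the span at chr5:55573611-55574000, with −log10 q of 4.85 and 18.7 untreated and 4.02 and 9.04 with JQ1 and fold enrichment of 4.79 and 10.2 untreated and 5.10 and 4.80 with JQ1. It was the weakest of the 18 best regions by −log10 q in both replicate 2 lists.

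The other metabolic genes had no region in all 4 lists. ACSL3, which activates long-chain fatty acids, had 1 region in every list but untreated replicate 1, with 32.7 untreated and 16.0 and 74.6 with JQ1, and another in every list but JQ1 replicate 1, with 6.84 and 15.3 untreated and 20.3 with JQ1. ALDH1A3, a retinaldehyde dehydrogenase, read 13.7 and 73.6 untreated and 63.0 in JQ1 replicate 2. NNMT, which methylates nicotinamide, read 75.0 in untreated replicate 2 and 9.35 and 38.4 with JQ1 at its best region. That region is 1 of 3 that NNMT shared with ZBTB16, since the windows of these neighbours overlap, so the 2 genes are not separate evidence there. SMS, the spermine synthase gene, read 70.7 and 56.1 in the replicate 2 lists at its best region. SORD, sorbitol dehydrogenase, and ELOVL5, a fatty acid elongase, also had peaks in the replicate 2 lists only.

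Of 5 genes of cell division and other roles, 3 had a region in all 4 lists, against 13.6% of all genes. TPD52, a vesicle and lipid storage gene on chromosome 8, had its best region 2.18 kb outside its span at chr8:80173519-80173933, with −log10 q of 27.5 and 93.3 untreated and 7.75 and 83.8 with JQ1 and fold enrichment of 9.30 and 16.03 untreated and 4.95 and 17.1 with JQ1. A further 3 regions inside TPD52 were present in every list but JQ1 replicate 1, and TPD52 carried 4 and 9 rows untreated and 1 and 9 with JQ1. HERC3, a ubiquitin ligase, had its region inside the gene at chr4:88599972-88600828, with −log10 q of 4.05 and 49.1 untreated and 3.07 and 52.2 with JQ1 and fold enrichment of 3.90 and 15.3 untreated and 3.70 and 16.8 with JQ1. C1orf116, an androgen-regulated gene of epithelial cells, had its region inside the gene at chr1:207028055-207028551, with −log10 q of 6.23 and 40.6 untreated and 9.87 and 31.8 with JQ1 and fold enrichment of 4.88 and 12.7 untreated and 6.84 and 9.25 with JQ1. CENPN, a centromere protein, had a region in every list but untreated replicate 1, which read 15.3 untreated and 4.65 and 10.8 with JQ1.

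Over the 18 best regions, the direction with JQ1 was mixed. The −log10 q was lower with JQ1 at 12 and higher at 6 within replicate 1, and lower at 11 and higher at 7 within replicate 2. Fold enrichment was lower at 11 and higher at 7 in replicate 1, and lower at 10 and higher at 8 in replicate 2. In replicates 1 and 2, the 18 regions had a median −log10 q of 9.87 and 60.2 untreated and of 8.21 and 60.3 with JQ1. Replicate 2 stood above replicate 1 of the same treatment at every one of the 18 regions. Each list was called against its own background, so these values rank peaks within a list and their differences between lists are given without a test.

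**Figure D4:**
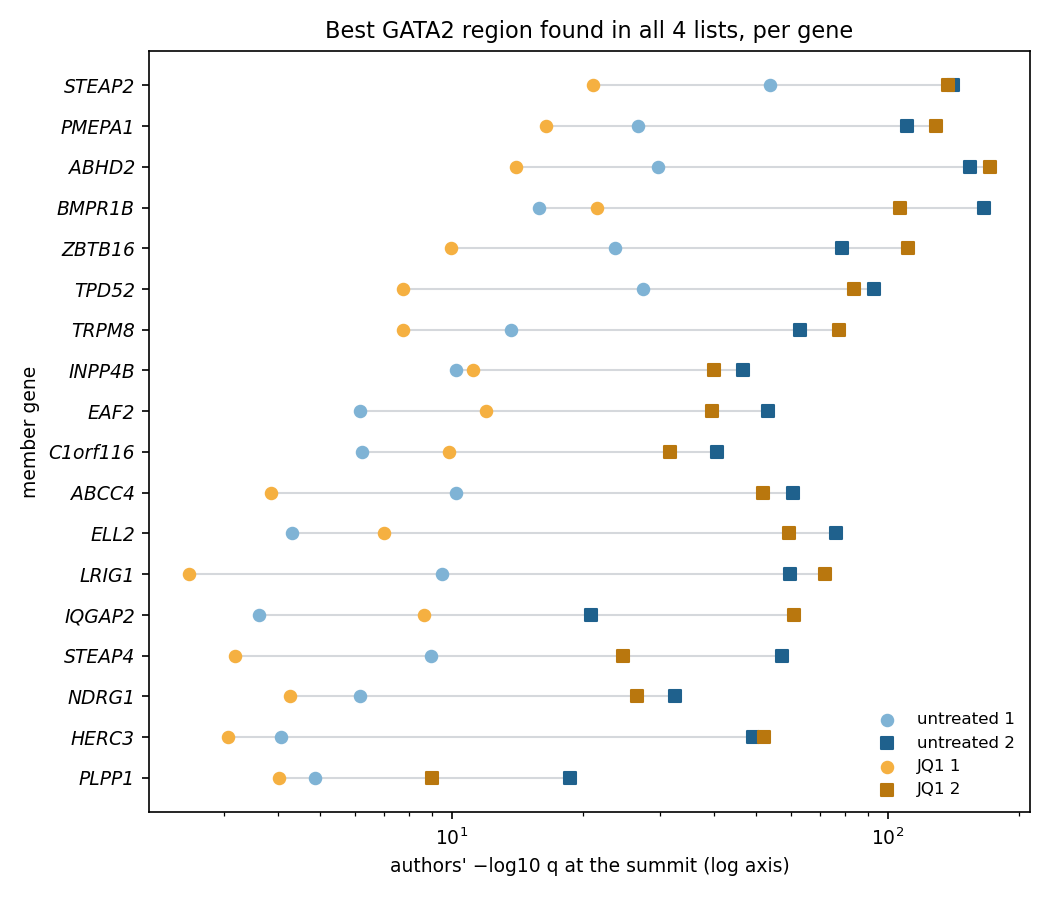
Authors' −log10 q at the summit (log axis) of the best region in all 4 lists for each of the 18 androgen response genes that have one, with circles for replicate 1 and squares for replicate 2. Both squares lie to the right of both circles in each gene, while untreated (blue) and JQ1 (orange) points change places from gene to gene.

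The shared regions lay away from the listed starts of their assigned genes. Starts of other genes were not counted here, and the STEAP4 region overlaps the promoter window of SRI. Positions were not counted over all genes, so they are no trait particular to the 40. Of 21 gene and region pairs in all 4 lists, 13 lay inside the gene span and the gene was the nearest protein-coding gene in 16. RefSeq start sites with a promoter entry were at hand for 32 of the 40 genes, and entries were missing for ELL2, NDRG1, ZBTB10, NNMT, SORD, ZBTB16, PLPP1 and TPD52. Within the 15 pairs with a listed start of the assigned gene, 0 lay within 1 kb of it and the median distance was 35.1 kb. Summits of the same region in different lists lay a median of 32 bp apart.

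Near starts of the assigned genes, peaks were few. Over all pairs with a listed start, 5 of 167 lay within 1 kb, near BMPR1B, C1orf116, MPHOSPH9, SGK1 and TRPM8. At BMPR1B, MPHOSPH9 and TRPM8 that start lay inside the gene span, away from its 5' end. The same share was not counted over all genes. None of the 5 was in all 4 lists. At BMPR1B the summit lay 0.93 kb from the internal start, with −log10 q of 3.67 untreated and 8.37 with JQ1 in the replicate 2 lists. At C1orf116 the distance was 0.703 kb and the replicate 2 values were 6.38 and 6.82. At SGK1 it was 0.626 kb, with 5.16 and 6.44. These 3 lay below the medians of their lists, whereas the peak 0.247 kb from an alternative start of TRPM8 lay above them, with 24.5 and 38.0. A peak on the 300 bases of a promoter window was also rare in the genome, with 0.267% and 0.689% of genes with an entry in the untreated lists and 0.158% and 0.820% with JQ1. Among the 32 genes with an entry, 1 and 1 had such a peak in the untreated lists and 0 and 2 with JQ1.

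The 2 promoter stretches under those peaks are shown because they are the places where a GATA2 peak met the start of an androgen response gene or its head-to-head neighbour. The first lies before the start of MTRFR, a mitochondrial translation release factor gene next to MPHOSPH9, which encodes a phosphoprotein of dividing cells, on the plus strand at chr12:123233343-123233435. The second lies before an alternative start of TRPM8, on the plus strand at chr2:233953503-233953622 (both RefSeq, GRCh38.p14). Capitals mark the same GATA motif as above.
MPHOSPH9 and MTRFR: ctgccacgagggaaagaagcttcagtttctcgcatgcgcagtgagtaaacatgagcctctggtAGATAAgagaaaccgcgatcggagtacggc
TRPM8 alternative start: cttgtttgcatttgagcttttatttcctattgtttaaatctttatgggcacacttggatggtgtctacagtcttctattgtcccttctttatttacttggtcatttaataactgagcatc
The MPHOSPH9 peak was present in untreated replicate 1 and JQ1 replicate 2, with −log10 q of 5.70 and 5.62. The 1 motif before MTRFR lay 46 and 32 bp from the summits. The part of this stretch that also lies in the window before the internal MPHOSPH9 start, on the minus strand, held 0 motifs. The TRPM8 peak was present in both replicate 2 lists, with −log10 q of 24.5 untreated and 38.0 with JQ1, and its 120 bases held 0 motifs. For the TRPM8 stretch, windows of the same place and length held the motif in 13.0% of all promoters. For the MTRFR stretch the share was 10.3%, taken at the same length but at the window end farthest from the start, a different place. Over whole windows, 11 of 60 promoter entries of the 40 genes (18.3%) held the motif, against 24.97% of all entries.

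Of 72 further genes often counted as androgen-raised, 30 and 54 had a peak in the untreated lists and 19 and 56 with JQ1. A region in all 4 lists lay near 15 of the 72 (20.8%), against 18 of the 40 and 13.6% of all genes. In spans above 100 kb, 6 of 19 of them (31.6%) had one, close to the 31.4% of all genes of that length, and 11 of 16 of the 40 did. Below 25 kb, 4 of 24 of the 72 (16.7%) had one, against 7.85% of all genes. At 25 to 100 kb, 5 of 29 (17.2%) did, against 13.4%. Of the 29 with an untreated recurrent region, 16 (55.2%) also had a JQ1 recurrent one, which is below the share of all genes (2920 of 4869). The 6 with the best shared regions were ADAMTS1, RPS6KA3, AKAP12, GPD1L, SELENOP and PDLIM5. The ADAMTS1 region, near a secreted protease gene, read 62.1 and 129 untreated and 36.8 and 138 with JQ1, above the STEAP2 region in both replicate 1 lists and below it in both replicate 2 lists. No test was made between the 2 sets of genes, which were chosen with results of these lists known.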

How the data were processed

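GATA2 ChIP-seq peak lists of 4 precipitates were analysed. The submitters' processing notes name the tools Bowtie2, Picard and MACS2 and the build hg38. Tool versions were not given in the sources used here. Each list carries the label of 1 sample, so peaks had been called sample by sample. In the deposited lists the score is the caller's own number and was not used, the fold enrichment is a linear ratio at the summit, and the −log10 p and −log10 q are the authors' significance values. The coordinates and summits were used as deposited.

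Rows on chromosomes 1 to 22, X and Y were kept, which left out 10 rows of JQ1 replicate 1 and 8 of untreated replicate 2. Summits within 50 kb of a gene span (RefSeq, GRCh38.p14) were assigned to the gene, and intervals overlapping by at least 1 bp were merged over lists with Python 3.11.15, pandas 2.3.3 and numpy 2.4.6. Within-list ranks used −log10 q. Counting was tested on simulated lists. The 40 genes, the 72 comparison genes and the role groups were chosen with earlier results of these data known, so counts are set beside all protein-coding genes and carry no test. Full values are given for the best region of each gene with a region in all 4 lists, and other genes are named by their presence per list or, where singled out further, after their values were seen. Alternatives covered the window, a stricter q, lists of equal length, summit distance, whole intervals, 1 row per interval (added after the data were seen) and each list left out.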

Additional observations from a re-analysis of the deposited data

How the results depend on the processing

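Among the recomputed values, 58 moved by less than 1.5 times (counts) or by less than the spread between replicates, and 17 moved by more. The genes with a JQ1 recurrent region numbered 13 in a 10 kb window and 12 inside the span, against 10.3% and 8.16% of all genes. Those with a region in all 4 lists numbered 11 and 10, against 7.65% and 6.09%. That last count was also 10 with −log10 q of 5 or more and 10 with lists of equal length, where recurrent regions lay near 15 genes (untreated) and 17 (JQ1). Row numbers that did not overlap between treatments were found for 1 gene in the report, against 0.554% of all genes. The count was 0 for windows of 10 kb, 100 kb and the span alone, against 0.309%, 0.684% and 0.230%. It was 0 with −log10 q of 5 or more, against 0.554%, and 8 with lists of equal length, against 2.855%. Leaving out 1 list left a single list in its group, where the recurrent count became genes with a peak in that list. It was 37 and 27 without untreated replicates 1 and 2 (54.6% and 25.7% of all genes), and 37 and 22 without JQ1 replicates 1 and 2 (58.2% and 18.2%). The lists left shared a region near 18 to 25 genes, against 13.6% to 23.6%. Row numbers did not overlap for 6 and 8 genes without untreated replicates 1 and 2, against 11.05% and 5.92%. Without JQ1 replicates 1 and 2 they did not overlap for 28 and 12, against 27.4% and 14.6%. Over these left-out settings, the difference in genes with a peak ran from -10 to 5 and the log2 ratio of rows from -1.35 to 1.27. The cause of these changes was not tested.

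With the replicate block the difference stayed at -2.5 genes, the log2 ratio of rows at -0.04 and that of all genes at -0.20, where the smallest p of a sign-flip test is 0.5. Same-numbered lists deviated together over genes (correlation 0.68), but the labels do not say that a number marks a shared culture or day. With 2 lists a group, neither the exact permutation test nor the sign-flip test could reach 0.05, and peaks absent from a short list set no upper limit on binding.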
